A study of Mus musculus with 6 samples.

Results

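The secreted Wnt antagonists are extracellular proteins that keep Wnt ligands from signalling. They were examined in C2C12 cells, an immortalized mouse myoblast line that fuses into myotubes in low serum, as 10 listed genes: Sfrp1, Sfrp2, Sfrp4, Sfrp5, Frzb, Dkk1, Dkk2, Dkk3, Wif1 and Sost. Of these, 9 are among the 17558 genes of the table. RNA was sequenced in 3 groups of 2 libraries, all taken 48 h after the change to differentiation medium with horse serum and insulin, transferrin and selenium. The control group stably carried a scrambled, non-targeting short hairpin RNA (shScr), and its genotype is labelled WT. The other groups stably carried a hairpin against Pkm1 (shPkm1) or against Pkm2 (shPkm2). Pkm1 and Pkm2 are made from the gene Pkm, which encodes pyruvate kinase, by alternative splicing. The labels do not say whether a line is a clone or a pool, how many hairpins were used, or whether the libraries of a group came from separate cultures, so the spread given here may be technical.

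Wnt ligands bind Frizzled receptors together with the co-receptors Lrp5 or Lrp6, which stabilizes beta-catenin and switches on target genes through Tcf and Lef factors. The secreted Frizzled-related proteins (Sfrp genes and Frzb) carry a cysteine-rich domain like that of Frizzled and bind Wnt ligands themselves, as does Wif1. Dkk1, Dkk2 and sclerostin, the product of Sost, bind the Lrp co-receptors instead, while Dkk3 is a divergent Dickkopf protein for which such binding is not established. In muscle, Wnt signals take part in specifying the lineage in the embryo and in the regeneration of fibres.

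The members were listed with results of these contrasts in view. Their differences between groups are therefore given as descriptions, with the standard error (SE) of the fit across all genes and with no p-value. Where a difference is said to pass or miss the threshold, an adjusted p under 0.05 in that fit, this describes how stable the call is and is not independent evidence. The pathway and marker genes were likewise listed with earlier results of these data known. Adjusted p-values printed for them come from the same fit and are descriptions too, as are counts of calls set beside shares of all genes. Dkk1 had no row in the table and was not analysed here. Of the other 9 genes, 6 passed the filter on low counts and entered the fit (Sfrp1, Sfrp2, Sfrp4, Frzb, Dkk2 and Dkk3). Sfrp1 passed it through the shPkm1 libraries and Frzb through the shPkm2 libraries, where each is highest. Dkk2, with 4 counts in each control library, passed it through the hairpin libraries. Bulk RNA does not tell fewer expressing cells from less RNA per cell.

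Libraries held 18216896 to 19796036 estimated counts, and log2 values of counts scaled to library size (CPM) in a group's libraries correlated across genes at 0.988 to 0.994. The control libraries differed most from each other, with a chi-square per degree of freedom between libraries of 30.8 against 5.94 in shPkm1 and 6.66 in shPkm2, and both contrasts with shScr rest on them. The Pkm1 isoform had 15844 and 16970 estimated counts in shScr, 5854 and 5856 in shPkm1, and 6635 and 6909 in shPkm2. The Pkm2 isoform had 31147 and 43712 in shScr, 30825 and 37021 in shPkm1, and 70489 and 71460 in shPkm2. It was thus not lower in the libraries labelled shPkm2, and results for them are given by that label. Summed over isoforms, the log2 fold change of Pkm against shScr was -0.63 for shPkm1 (SE 0.133, edgeR adjusted p 0.00107). For the libraries labelled shPkm2 it was 0.20 (SE 0.133, adjusted p 0.198). In TPM, a level per length and library, these groups did not overlap. Pkm was at 1643.94 and 2136.04 TPM in shScr and at 2977.91 and 2931.62 in the libraries labelled shPkm2.

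Promoter windows were taken for the members from RefSeq, and 7 of 10 matched an entry (GRCm38.p6, 250 bases before the transcript start that its promoter table uses). For Sfrp2 and Dkk2 that start lies downstream of the first base of the gene's span given with their values, so the Sfrp2 window lies inside that span and the Dkk2 window runs into it. Those of Sfrp2, the most abundant member, and Dkk2, whose order of groups differed from that of Sfrp2, are shown 5′ to 3′ on the plus strand, with any match to a searched motif in capitals. The Sfrp2 window spans chr3:83766071-83766320 and the Dkk2 window spans chr3:132085042-132085291.
Sfrp2: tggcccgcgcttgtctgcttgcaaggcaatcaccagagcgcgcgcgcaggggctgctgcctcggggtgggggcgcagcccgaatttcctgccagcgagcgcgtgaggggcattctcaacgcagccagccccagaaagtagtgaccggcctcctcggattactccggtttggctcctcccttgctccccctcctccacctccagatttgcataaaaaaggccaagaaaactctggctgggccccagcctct
Dkk2: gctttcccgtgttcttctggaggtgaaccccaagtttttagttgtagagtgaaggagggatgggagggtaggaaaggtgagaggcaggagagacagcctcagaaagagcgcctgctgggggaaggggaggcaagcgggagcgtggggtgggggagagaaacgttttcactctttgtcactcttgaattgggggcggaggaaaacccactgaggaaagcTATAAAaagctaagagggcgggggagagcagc
The motifs, searched on both strands, were CTTTGAT for Lef and Tcf factors, CAGCTG for the E-box of muscle bHLH factors and TATAAA for a TATA box. None of the 3 lies in the Sfrp2 window, and the Dkk2 window holds TATAAA beginning 32 bases before the transcript start used there. TATAAA was also found in the windows of Dkk1 and Wif1, and CAGCTG in that of Frzb, 17 bases before the start. CTTTGAT was in none of the 7 windows. Among all 32851 windows of this length, 3.21% hold CTTTGAT, 13.0% CAGCTG and 12.4% TATAAA. These matches describe letters and do not show binding.

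**Figure D1:**
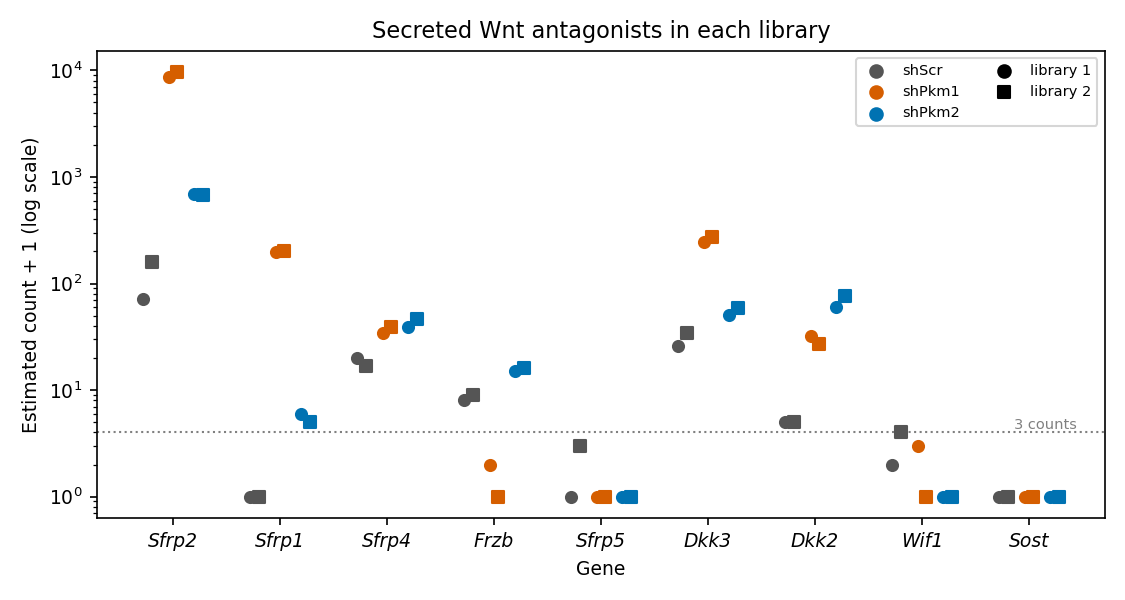
Estimated counts plus 1 of 9 members in each library on a log scale, with circles for library 1 and squares for library 2 of each group and a dotted line at 3 counts. Sfrp2, Sfrp1 and Dkk3 are highest in both shPkm1 libraries, Dkk2 and Frzb in both libraries labelled shPkm2, and Sfrp5, Wif1 and Sost stay at or below 3 counts.

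Sfrp2 had the highest level of the 9 antagonists in all 6 libraries, and its level was lowest in shScr and highest in shPkm1. The gene (NCBI gene 20319) lies on chromosome 3 from 83765750 to 83774314 in GRCm38. It had 70 and 159 estimated counts in shScr, 8655 and 9668 in shPkm1, and 698 and 669 in the libraries labelled shPkm2. The groups did not overlap: the lowest shPkm1 library stood above both libraries labelled shPkm2, and those stood above both controls. In TPM, a level per length and library that can be compared between genes, Sfrp2 was at 3.19 and 7.12 in shScr, 451.41 and 459.39 in shPkm1, and 34.13 and 31.98 in the libraries labelled shPkm2. Its place in the order of all genes by TPM moved from 9276 and 7784 in shScr to 321 and 310 in shPkm1, and was 3944 and 3990 in the libraries labelled shPkm2.

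On the log2 scale Sfrp2 was 6.13 higher in shPkm1 than in shScr (SE 0.211), a 69.9-fold difference that ranked 29th from the highest of 12643 tested genes. In the libraries labelled shPkm2 it was 2.25 higher than in shScr (SE 0.204), or 4.77-fold. Between the hairpin groups it was lower by -3.87 in the libraries labelled shPkm2 (SE 0.179). The control libraries differed from each other more than those of either hairpin group did. Without control library 2 the differences from shScr were 6.74 and 2.87, and without control library 1 they were 5.72 and 1.85.

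Sfrp1, a Frizzled-related protein like Sfrp2, is encoded on chromosome 8 from 23411383 to 23449632. It had 0 counts in both shScr libraries, 198 and 202 in shPkm1, and 5 and 4 in the libraries labelled shPkm2. Reads were therefore found in both libraries of each hairpin group and in neither control. Against a floor of 3 counts per library Sfrp1 was at least 57.7-fold higher in shPkm1 than in shScr, and at least 1.19-fold higher in the libraries labelled shPkm2. Between the hairpin groups, where both had counts, it was lower by -5.56 on the log2 scale in the libraries labelled shPkm2 (SE 0.309).

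Sfrp4, another Frizzled-related protein gene, on chromosome 13 from 19623175 to 19632825, was low throughout. It had 19 and 16 counts in shScr, 33 and 38 in shPkm1, and 38 and 45 in the libraries labelled shPkm2. Both hairpin groups stood above the controls. They overlapped each other after TMM scaling of counts, the composition scaling of the fit, but not in TPM, at 1.91 and 1.98 against 2.04 and 2.31. The log2 difference from shScr was 0.81 in shPkm1 (SE 0.323) and 0.90 in the libraries labelled shPkm2 (SE 0.317), and 0.10 between the hairpin groups (SE 0.285). Neither difference from shScr stayed past the threshold with DESeq2 or without control library 2, and the latter gave 0.61 for shPkm1 and 0.71 for shPkm2. The difference in the libraries labelled shPkm2 also missed it without library 2 of that group (0.77), and that in shPkm1 without any one of the hairpin libraries (0.75 to 0.88).

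Frzb, also known as Sfrp3, went the other way in shPkm1. It lies on chromosome 2 from 80411970 to 80447396 and had 7 and 8 counts in shScr, 1 and 0 in shPkm1, and 14 and 15 in the libraries labelled shPkm2. The 3 groups did not overlap, with shPkm1 lowest and shPkm2 highest, on counts that never passed 15. The ratio of summed counts of shScr to shPkm1 was 17.3, with a 95% counting interval from 2.66 to 727. The ratio of the libraries labelled shPkm2 to shPkm1 was 26.5, with an interval from 4.39 to 1080. Against shScr the libraries labelled shPkm2 differed by 0.61 on the log2 scale (SE 0.470), which did not pass the threshold in the fit but passed it in both limma fits on TPM (0.26 on log2(TPM + 1) and 0.81 on log2(TPM + 0.1)). Sfrp5 had 0 and 2 counts in shScr and 0 in the other 4 libraries, so no fold is given.

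Dkk3, the divergent Dickkopf gene on chromosome 7 from 112116019 to 112159482, had the same order of groups as Sfrp2 over a smaller range. It had 25 and 33 counts in shScr, 246 and 270 in shPkm1, and 50 and 58 in the libraries labelled shPkm2. The shPkm1 libraries stood far above the rest, and the libraries labelled shPkm2 lay just above the controls. The log2 difference from shScr was 2.95 in shPkm1 (SE 0.201), or 7.7-fold, and -2.38 separated the libraries labelled shPkm2 from shPkm1 (SE 0.182). The difference of 0.56 between the libraries labelled shPkm2 and shScr (SE 0.236) ranged from 0.45 to 0.69 when single libraries were left out, and missed the threshold without any one of the 6. Reads of Dkk3 were assigned to different transcripts in the libraries of a group, so only the sum over transcripts is used.

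Dkk2, which binds the Lrp co-receptors and lies on chromosome 3 from 132085266 to 132180304, was highest in the libraries labelled shPkm2. It had 4 counts in each shScr library, 31 and 26 in shPkm1, and 59 and 75 in the libraries labelled shPkm2. The groups did not overlap, and the order of the hairpin groups was the reverse of that seen for Sfrp2, Sfrp1 and Dkk3. On the log2 scale Dkk2 was 2.60 higher than shScr in shPkm1 (SE 0.448) and 3.70 higher in the libraries labelled shPkm2 (SE 0.401). The difference between the hairpin groups was 1.10 (SE 0.283), and it missed the threshold with DESeq2, without shPkm1 library 2 (0.94) and without shPkm2 library 2 (0.90).

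Wif1 and Sost gave no measurable difference at this depth. Wif1, on chromosome 10 from 121034004 to 121100642, had 1 and 3 counts in shScr, 2 and 0 in shPkm1, and 0 in both libraries labelled shPkm2. Sost, on chromosome 11 from 101962458 to 101967015, is listed through 1 predicted transcript and had 0 counts in all 6 libraries. A count of 0 allows up to 3 counts per library, so expression below that level would not have been seen.

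**Figure D2:**
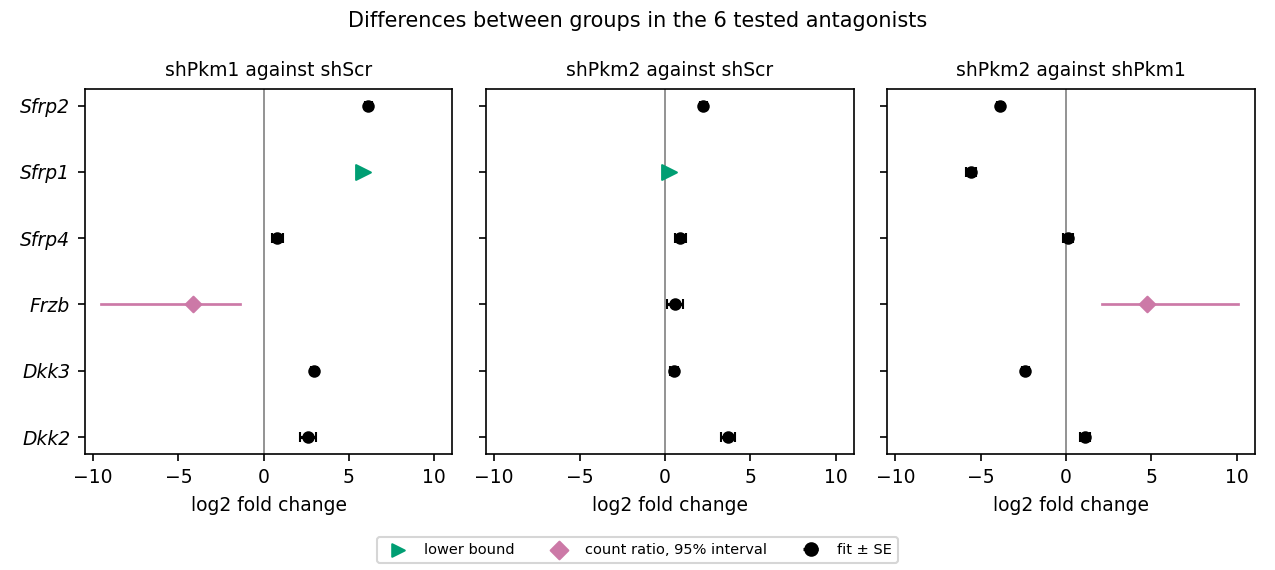
Log2 fold changes of the members in the 3 contrasts, with circles for the fit and bars for its SE, triangles for lower bounds against the floor of 3 counts, and diamonds for count ratios with their 95% counting interval. Sfrp2 lies at 6.13, 2.25 and -3.87, while Dkk2 lies at 2.60, 3.70 and 1.10.

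In shPkm1 against shScr, 5 of the 6 members in the fit were called higher and 1 lower at an adjusted p under 0.05, where 63.1% of all 12643 genes were called, 31.8% higher and 31.4% lower. For shPkm2 against shScr, 5 members were called higher, 0 lower and 1 neither, where 68.0% of all genes were called, 33.9% upward and 34.2% downward. Between the hairpin groups, 2 were called higher in shPkm2 than in shPkm1, 3 lower and 1 neither, where 53.0% of all genes were called, 25.7% upward and 27.3% downward. The members were chosen from these contrasts, so nothing is read from the counts. Both contrasts with shScr share the same 2 control libraries.

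The levels of the members relative to one another also differed between groups. In shScr the order by TPM was Sfrp2, then Sfrp4 and Dkk3, which overlapped at 0.91 and 0.78 against 0.62 and 0.82, then Frzb at 0.20 and 0.23. In shPkm1 Sfrp2 was followed by Dkk3 at 7.34 and 7.23, Sfrp1 at 4.50 and 4.12, Sfrp4 at 1.91 and 1.98, and Dkk2 at 0.84 and 0.63, with no overlap between neighbours. In the libraries labelled shPkm2 the order after Sfrp2 was Sfrp4 at 2.04 and 2.31, then Dkk2 at 1.47 and 1.79 and Dkk3 at 1.37 and 1.54, which overlapped, then Frzb at 0.44 and 0.46 and Sfrp1 at 0.10 and 0.08. Sfrp1 thus moved from undetected in shScr to a place above Sfrp4 in shPkm1.

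Summed over the 9 genes, antagonist transcripts made up 5.05 and 9.24 TPM in shScr, 466.12 and 473.35 in shPkm1, and 39.55 and 38.16 in the libraries labelled shPkm2. Sfrp2 gave 63.2% and 77.1% of that sum in shScr, 96.8% and 97.1% in shPkm1, and 86.3% and 83.8% in the libraries labelled shPkm2. Without Sfrp2 the sums were 1.86 and 2.12, 14.71 and 13.96, and 5.42 and 6.18 TPM in the same order. The order of the groups was therefore the same with and without the leading member.

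Genes with the profile most like that of a member were found by the root mean square distance of centred log2 CPM over the 6 libraries. Only genes with a mean of at least 50 estimated counts were compared, and a prior count of 2 entered the log2 CPM. For Sfrp2 the nearest were Lgalsl (0.388), Ccn3 (0.477) and Thbd (0.600). Lgalsl was at 0.02 TPM in both shScr libraries, so its values there depend on the prior count. For Dkk3 the nearest were Mgl2 (0.131), Rab32 (0.135) and Pla2r1 (0.158), and for Sfrp4 they were Zfand4 (0.0578), Zbtb37 (0.0621) and Rnf2 (0.0942). Ccn3, a secreted matricellular protein, was at 1.13 and 1.39 TPM in shScr, 92.52 and 86.25 in shPkm1, and 4.57 and 4.54 in the libraries labelled shPkm2.

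The state of differentiation differed between the groups in which the antagonists were measured. All 14 skeletal muscle markers were called lower in each of the 3 contrasts, where 31.4%, 34.2% and 27.3% of all genes were (shPkm1 and shPkm2 against shScr, and shPkm2 against shPkm1). Their summed levels were 35414.84 and 27574.14 TPM in shScr, 13936.79 and 15030.09 in shPkm1, and 1095.41 and 1027.07 in the libraries labelled shPkm2. Myog, which encodes the differentiation factor myogenin, had a log2 fold change of -0.94 in shPkm1 (SE 0.127, edgeR adjusted p 3.19e-05). It was -5.35 for the libraries labelled shPkm2 (SE 0.154, adjusted p 1.06e-11). Mymk, which encodes the fusion protein myomaker, was at -1.41 (SE 0.126, adjusted p 7.75e-07) and -7.36 (SE 0.168, adjusted p 3.66e-12) in the same order. Muscle markers were thus lowest in the libraries labelled shPkm2, whereas Sfrp2 was highest in shPkm1.

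Markers of fibroblasts, cells that also make Sfrp and Dkk proteins, were summed in the same way. The 6 markers gave 373.90 and 384.78 TPM in shScr, 2646.92 and 2604.67 in shPkm1, and 70.62 and 64.12 in the libraries labelled shPkm2. In shPkm1 all 4 that could be tested were higher, where 31.8% of all genes were. Of these 4, Dpt passed the filter on low counts through the shPkm1 libraries, where it is highest (102 and 89 counts). It had 13 and 4 counts in shScr and 3 and 4 in shPkm2, so its call is no support for a direction. In the libraries labelled shPkm2 1 of the 4 was higher, 2 lower and 1 neither, where 68.0% of all genes were called. Most of the sum was Col1a1, a collagen chain also made by other mesenchymal cells, at 359.46 and 362.46 TPM in shScr, 2585.09 and 2551.69 in shPkm1, and 50.51 and 43.19 in the libraries labelled shPkm2. Without Col1a1 the sums were 14.44 and 22.32 TPM in shScr, 61.83 and 52.98 in shPkm1, and 20.11 and 20.93 for shPkm2, so that shScr and shPkm2 overlapped. Pdgfra, a receptor of mesenchymal cells, was higher with both hairpins, at 1.02 and 1.61 TPM in shScr, 8.44 and 8.34 in shPkm1, and 10.22 and 9.47 for shPkm2. Thy1 and Lum were at 0 in both shScr libraries, and Thy1 also in both shPkm1 libraries.

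The other marker sums were smaller or changed less. Osteoblast markers (6), mostly Runx2, ranged from 5.05 to 8.05 TPM in shScr, 16.23 to 19.55 in shPkm1 and 16.12 to 17.51 in shPkm2. Cartilage markers (4), mostly Sox9, gave 13.07 and 15.37 TPM in shScr, 15.20 and 14.92 in shPkm1, and 36.72 and 31.32 in shPkm2. Ibsp and Matn1 were at 0 in every library. Tendon markers (3), mostly Scx, gave 234.47 and 281.39 TPM in shScr, 170.16 and 206.09 in shPkm1, and 114.93 and 107.96 in shPkm2. Fat markers (5), mostly Cebpa, gave 7.63 and 8.03 TPM in shScr, 21.52 and 22.74 in shPkm1, and 23.07 and 19.82 in shPkm2. Endothelial markers (3) stayed between 0.09 and 0.33 TPM, and the 1 of 3 leukocyte markers with a row between 0.62 and 3.62. The part of differentiation state or of other cell types in the antagonist differences was not tested.

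**Figure D3:**
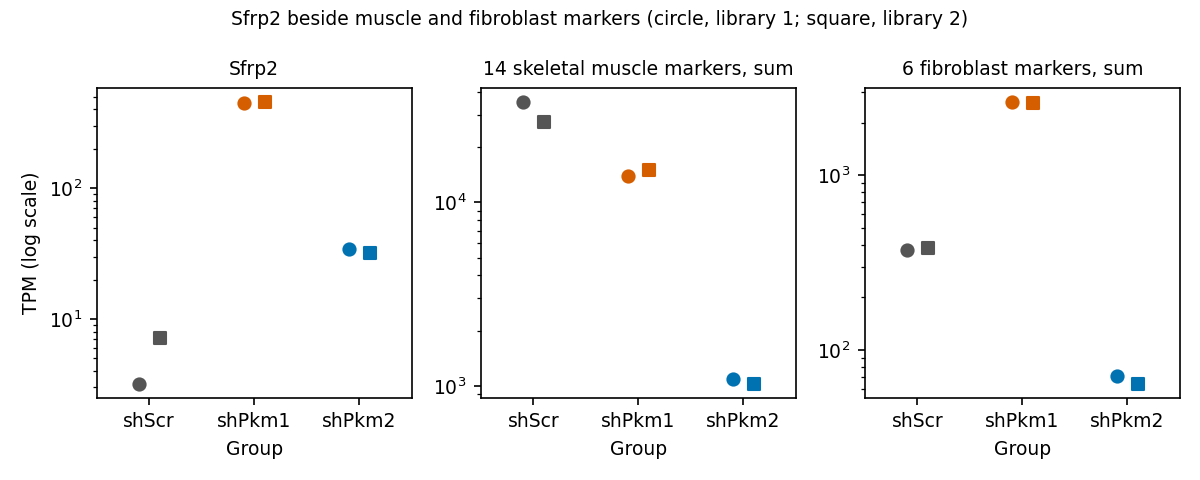
Level of Sfrp2 and summed levels of the 14 skeletal muscle and 6 fibroblast markers in each library, in TPM on log scales that differ between panels, with circles for library 1 and squares for library 2. Sfrp2 and the fibroblast sum are highest in shPkm1, while the muscle sum is highest in shScr and lowest in the libraries labelled shPkm2.

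The other genes of Wnt signalling moved in both directions. Of 84 listed, 79 had a row and 63 were tested. In shPkm1 29 rose, 14 fell and 20 were not called, with a median log2 change of 0.35 beside 0.00 over all tested genes, of which 63.1% were called. The 29 and the median include Rspo1, Rspo2 and Lgr5, which passed the filter on low counts only through the shPkm1 libraries. The split of 29 to 14 was 34 to 10 with library totals and 41 to 7 with limma on log2(TPM + 1). In the libraries labelled shPkm2 22 rose, 21 fell and 20 were not called, with a median of 0.07 beside 0.01 and 68.0% of all genes called, so the share called was near that of all genes. The split of 22 to 21 was 30 to 16 with library totals and 31 to 15 with limma on log2(TPM + 1). Between the hairpin groups 9 were higher, 30 lower and 24 not called in the libraries labelled shPkm2, with a median of -0.25 beside 0.00 and 53.0% of all genes called. The 30 and this median also include Rspo1, Rspo2 and Lgr5. Kremen2 passed the filter only through the shScr libraries and had 0 counts in the libraries labelled shPkm2. It is among the 21 that fell and the 30, so these splits are descriptions and no support for a direction.

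For pathway genes, values "with shPkm1" and "with shPkm2" are log2 fold changes of the libraries so labelled against shScr. Among receptors bound by Dickkopf proteins or sclerostin, the co-receptor Lrp6 rose by 0.45 with shPkm1 (SE 0.101, adjusted p 0.00183). With shPkm2 its rise was 0.54 (SE 0.101, adjusted p 3.15e-04). Lrp5, its paralog, was 0.47 higher in shPkm1 (SE 0.0981, adjusted p 0.00102) and at 0.22 with shPkm2 (SE 0.0981, adjusted p 0.0643), where 4 alternatives called it higher, among them library totals (0.54) and the fit without control library 1 (0.26). Lrp4, which anchors sclerostin and also serves at the neuromuscular junction, was at -0.45 with shPkm1 (SE 0.134, adjusted p 0.0103), a call lost in 6 alternatives, among them the fits without control library 2 (-0.19), shPkm1 library 1 (-0.41) or shPkm1 library 2 (-0.47). With shPkm2 it was at -1.89 (SE 0.140, adjusted p 6.97e-08). Of the Kremen genes, whose products act with Dkk1 and Dkk2, Kremen1 was not called in any contrast in the edgeR fit, while both limma fits on TPM called it higher in both hairpin groups (0.33 to 0.34). Kremen2 had 10 and 11 counts in shScr, 8 and 10 in shPkm1 and 0 in both libraries labelled shPkm2, which is at least 4.41-fold lower than shScr.

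Of 8 tested ligands, 1 rose and 4 fell in shPkm1, and 2 rose and 4 fell in the libraries labelled shPkm2, beside 63.1% and 68.0% of all genes called in these contrasts. Nothing particular to the ligands is read from these counts. The 1 that rose in shPkm1 was Wnt10b, by 1.27 (SE 0.294, adjusted p 0.00215). Wnt10a, at 0.38 and not called (adjusted p 0.0630), was called higher in 6 alternatives, among them the fit without control library 2 (0.78). Wnt7b was at -3.99 with shPkm1 (SE 0.295, adjusted p 1.39e-07) and at 0.97 with shPkm2 (SE 0.181, adjusted p 3.41e-04). Of the 2 genes of ligand secretion, Wls, the carrier of Wnt ligands to the cell surface, rose by 0.84 with shPkm1 (SE 0.123, adjusted p 5.58e-05) and by 0.73 with shPkm2 (SE 0.122, adjusted p 1.40e-04). Porcn, the acyltransferase that lipid-modifies Wnt ligands, fell by 1.09 (SE 0.124, adjusted p 6.40e-06) and by 2.95 (SE 0.137, adjusted p 7.21e-10). Of 13 tested Frizzled and other Wnt receptors, 7 rose and 3 fell in shPkm1 and 2 rose and 6 fell in shPkm2, beside the same shares of all genes. The difference between these counts was not tested.

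Antagonists outside the 10 members included Igfbp4, a secreted binding protein, and Notum, an enzyme that removes the lipid of Wnt ligands. Notum rose by 2.31 in shPkm1 (SE 0.326, adjusted p 4.37e-05) and by 1.83 with shPkm2 (SE 0.335, adjusted p 2.85e-04). Without control library 2 these rises were 3.02 and 2.54. Igfbp4 rose by 2.68 in shPkm1 (SE 0.170, adjusted p 3.65e-08) and fell by 1.25 with shPkm2 (SE 0.222, adjusted p 2.32e-04). The R-spondins act against the removal of Frizzled receptors. Rspo3, with 36 and 93 counts in shScr and 11 and 2 in shPkm1, fell by 3.47 (SE 0.549, adjusted p 1.16e-04). Its value was -2.73 without control library 2, -5.13 without shPkm1 library 1 and -2.68 without shPkm1 library 2. Rspo1 and Rspo2 were called higher, with ratios of summed counts to shScr of 13.6 (95% counting interval 4.38 to 68.3) and 61.2 (16.6 to 510). Their receptor gene Lgr5 was also called higher, at a ratio of 12.6 (3.18 to 109). Since these 3 genes entered the test through the group where they are high, their calls are no support for a direction of the group.

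Of 8 tested target genes of Wnt signalling, 7 rose and 1 fell in shPkm1, and 4 rose and 2 fell in the libraries labelled shPkm2, beside 63.1% and 68.0% of all genes called. The 1 that fell in shPkm1 was Lef1 (-0.48, adjusted p 0.0476), whose groups overlapped and which was at -0.06 without control library 2. Axin2, a feedback inhibitor widely used as a readout, was 0.79 higher in shPkm1 (SE 0.183, adjusted p 0.00215) and fell by 1.09 with shPkm2 (SE 0.207, adjusted p 4.02e-04). Ccn5 rose by 4.43 in shPkm1 (SE 0.123, adjusted p 2.95e-11) and fell by 1.69 with shPkm2 (SE 0.145, adjusted p 2.85e-07). Ccnd1, which encodes cyclin D1, rose by 2.12 with shPkm1 (SE 0.106, adjusted p 3.93e-09) and by 3.06 with shPkm2 (SE 0.107, adjusted p 5.13e-11). Nkd2 rose by 2.59 in shPkm1 (SE 0.231, adjusted p 7.27e-07) and was not called with shPkm2. Sfrp2 and Axin2 were both higher than shScr in shPkm1, while in the libraries labelled shPkm2 Sfrp2 was higher and Axin2 lower. Axin2 does not stand for the target genes there, since the 4 that rose were Lef1, Ccnd1, Myc and Ccn4. Lef1 was at 3.42 and 6.17 TPM in shScr and at 16.56 and 14.68 in the libraries labelled shPkm2.

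**Figure D4:**
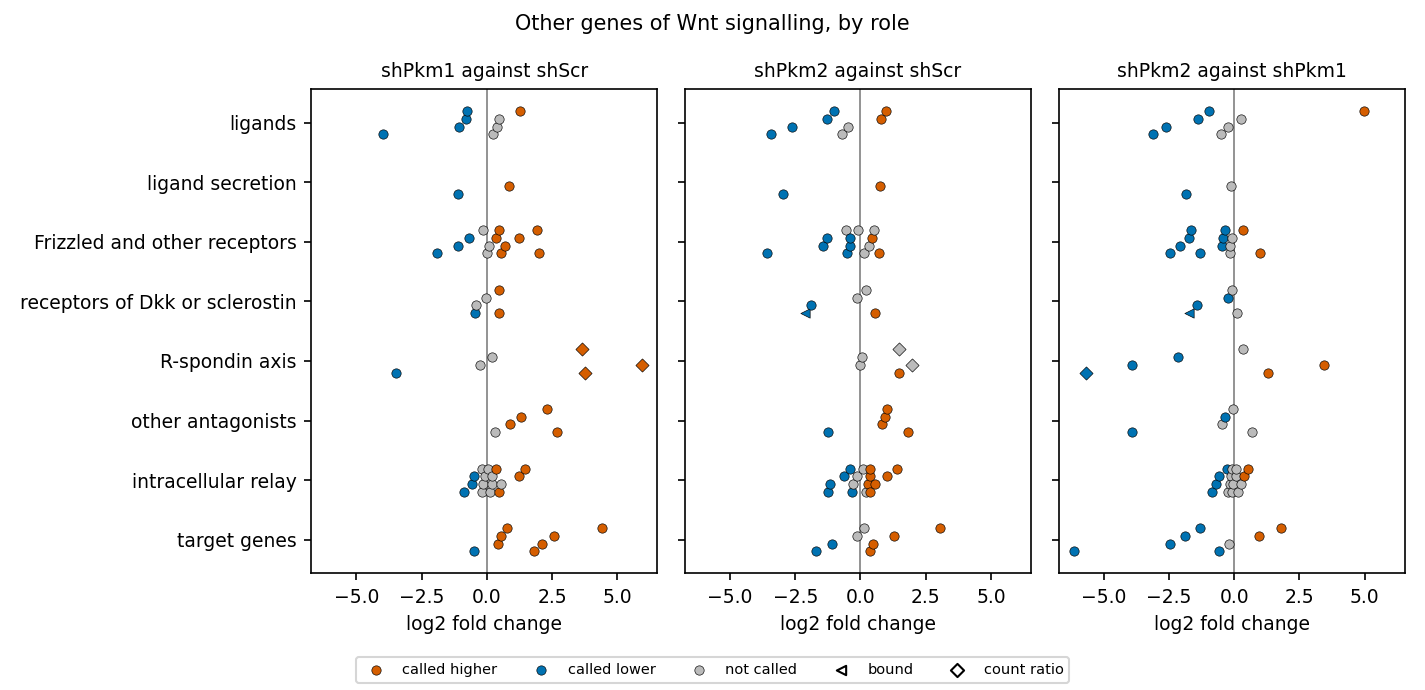
Log2 fold changes of the 63 tested Wnt pathway genes by role in the 3 contrasts, with orange for genes called higher, blue for genes called lower and grey for the others, triangles for bounds and diamonds for count ratios. A gene with both groups at or below 3 counts per library is left out of that panel. Target genes lie mostly to the right in shPkm1 against shScr and on both sides in the other panels.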

How the data were processed

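Total RNA of 6 C2C12 libraries was sequenced. The deposited table gives, per the file headers, an estimated count, TPM and FPKM for each of 57920 transcripts and library. The submitters' processing notes name HISAT, StringTie, Bowtie, RSEM, DESeq2 and mm10; versions and roles are not given in the sources used here. FPKM values and 9 mean columns were not used.

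For each of 17558 NCBI genes (113 without a symbol), the estimated counts of its transcripts were added and rounded to whole numbers, and TPM was added likewise. Counts were fitted with edgeR 4.0.16 in R 4.3.3 (filterByExpr with a minimum count of 10 and total of 15, TMM scaling, quasi-likelihood test), with 1 coefficient per group over all 6 libraries. P-values were adjusted by the Benjamini-Hochberg method over 12643 genes, and a gene was called at an adjusted p under 0.05. The scripts were tested on simulated data. Where a group had 0 counts in both libraries, a bound was computed with 3 counts per library as the floor. With 1 to 3 counts the ratio of summed counts has an exact 95% interval, which covers counting error only. Levels are compared between genes only as TPM. TMM set the median of all genes near 0; scaling by library totals instead shifts it by 0.195, 0.325 and 0.13 (log2) in shPkm1 against shScr, shPkm2 against shScr and shPkm2 against shPkm1.

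The members, pathway lists and marker lists were chosen with earlier results of these data known. All 10 members are reported. Pathway genes were eligible to be named per contrast and role as up to 2 called genes with the largest rise and 2 with the largest fall, with a mean of at least 50 counts and no overlap between groups. Kremen1, Kremen2, Rspo1, Rspo2, Lgr5 and genes named for opposite directions in the closing section were chosen after their values were seen. DESeq2 1.42.0, limma 3.58.1 on log2(TPM + 1) and log2(TPM + 0.1), other scalings and filters, a replicate block and leaving out each library were alternatives.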

Additional observations from a re-analysis of the deposited data

Results flagged for a closer look

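No member was called in opposite directions against shScr in the edgeR fit, although both limma fits on TPM called Frzb lower in shPkm1 and higher in shPkm2, and groups of 2 libraries allow no check for single outlying libraries. Among the other Wnt pathway genes, 6 were called in opposite directions in the hairpin groups. The direct contrast of shPkm2 with shPkm1 gives the size of each difference, and since the genes were picked for their opposite directions its outcome is a description, with no p-value. Wnt7b was 4.96 higher on the log2 scale in the libraries labelled shPkm2 (SE 0.273). Lef1, a transcription factor of the pathway and itself a target, was 1.79 higher there (SE 0.184). Its fall of -0.48 in shPkm1 against shScr had overlapping groups and lost its call in 11 alternatives, among them the fit without control library 2, which gave -0.06. Ccn5 was at -6.12 (SE 0.138), Igfbp4 at -3.93 (SE 0.187), Axin2 at -1.87 (SE 0.195) and Fzd8 at -1.72 (SE 0.175). Against shScr, each of these 4 was called higher in shPkm1 and lower in shPkm2. The fall of Fzd8 in shPkm2 (-0.50, edgeR adjusted p 0.0332) was -0.18 with library totals and -0.03 in both limma fits on TPM, where it was not called, and its groups overlap in TPM. It also lost its call with DESeq2, with only the 2 groups compared and without control library 2 (-0.35) or any one of the hairpin libraries.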

How the results depend on the processing

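The number of members called higher in shPkm1 against shScr went from 5 to 3 with a mean of at least 50 counts, and the 1 called lower to 0 there and with only the 2 groups compared. In the libraries labelled shPkm2 against shScr, 5 became 3 with that filter, with DESeq2 and with only the 2 groups compared, and 3 to 4 when single libraries were left out, with 3 without control library 2 or shPkm2 library 2, while limma on log2(TPM + 0.1) gave 6. Between the hairpin groups, 2 called higher became 0 with that filter, 1 with DESeq2, and 1 to 2 when single libraries were left out, with 1 without shPkm1 library 2 or shPkm2 library 2. The filter removes low members from the test. With only the 2 groups compared, Frzb no longer passed the filter on low counts in shPkm1 against shScr. Sfrp1 no longer passed it in the libraries labelled shPkm2 against shScr. The cause of the other changes was not tested. Of the Wnt pathway genes, 14 called lower in shPkm1 became 7 in both limma fits on TPM, where 29 called higher became 41 and 40. Csnk1a1 in shPkm1 against shScr turned to 0.28 in both limma fits, Kremen1 turned to 0.34 and 0.34 there in shPkm1 and to 0.33 and 0.34 in shPkm2, and Rspo3 in the libraries labelled shPkm2 against shScr turned from -0.01 to 0.73 without control library 2 and was -0.47 without control library 1. No shared deviation by replicate number was seen: deviations of same-numbered libraries correlated at -0.03, 0.04 and 0.05. These values cannot tell whether the libraries were prepared as pairs. With the replicate block 7922, 8566 and 6682 genes were called, against 7984, 8602 and 6703 without it, and 4 members were higher in each contrast with shScr, with Sfrp4 in shPkm1 (adjusted p 0.0547) and Dkk3 in shPkm2 (adjusted p 0.0529) not called. Leaving out single libraries gave 6047 to 8284, 7231 to 8792 and 4939 to 7987 genes.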
